A study of Mus musculus with 2 samples.

Results

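The 8 keratin genes Krt7, Krt8, Krt18, Krt19, Krt5, Krt6a, Krt16 and Krt17 were described in 2 suspension cultures of mouse embryonic stem (ES) cells, 1 with and 1 without doxycycline (dox). They were chosen from 11 keratin rows among the 14261 gene rows of the deposited table, with their values in this same comparison already known. Their difference between the libraries is therefore a description and not a finding that a test could support. Both cultures were TRE-ESC cells held for 36 h in low-adsorption dishes in N2B27 medium with the kinase inhibitors known as 2i and the cytokine LIF. TRE is the usual name of a promoter that answers to tetracycline-class drugs, and the title of the series names c-Jun as the induced factor. What else the cells carry, and whether they are 1 clone, is not given in the sources used here. With 1 library per group there is no spread between cultures, no test and no p-value.

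Keratins are the intermediate filament proteins of epithelial cells. A type I (acidic) keratin pairs with a type II (basic) keratin, and neither type builds a filament alone. Krt8 and Krt18 form the usual pair of simple, single-layered epithelia and are among the earliest keratins of the embryo, where they mark the trophectoderm, while Krt7 and Krt19 join them in ducts and other simple epithelia. Krt5 marks the basal layer of stratified epithelia, with Krt14 as its usual partner. Krt6a, Krt16 and Krt17 are keratins of skin appendages and of activated keratinocytes, as after wounding.

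All values are whole numbers on a scale that the authors appear to have normalized, since both libraries had quartiles of 14, 62 and 184. They are not read counts, and the depth behind them is unknown. Because of this scale, a value says mainly how high a gene ranks within its library. Ratios were taken after adding 10 to each value, so that those of low genes come out too small, and no ratio is given for a gene listed at 0. Counts of genes cover the 8547 rows that reached a floor of 50 in either library. Jun, the induced gene, stood at 55 without dox and 3821 with dox. Of 10 ES cell markers, all were above the floor of 50 in both libraries, with a summed value of 20494 without dox and 12010 with dox. Of these 10, 6 were lower with dox by 2-fold or more and 0 higher, and Nanog stood at 2508 and 623. In such bulk RNA, fewer cells that express a gene and less of its RNA per cell cannot be told apart.

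In the library without dox the 8 keratins were close to absent except for Krt8, and with dox all of them were well above the floor. Of the 8, 8 passed 2-fold, where 9.23% of all 8547 genes were higher by as much, and 8 passed 4-fold, where 3.11% of all genes did. The choice of these genes used that contrast, so nothing is read from the counts. Without dox 7 of the 8 had values of at most 10. Of all 3067 rows with a value of at most 10 without dox, 69 reached 100 with dox, which is 2.25%, and these 7 keratins are among the 69.

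**Figure D1:**
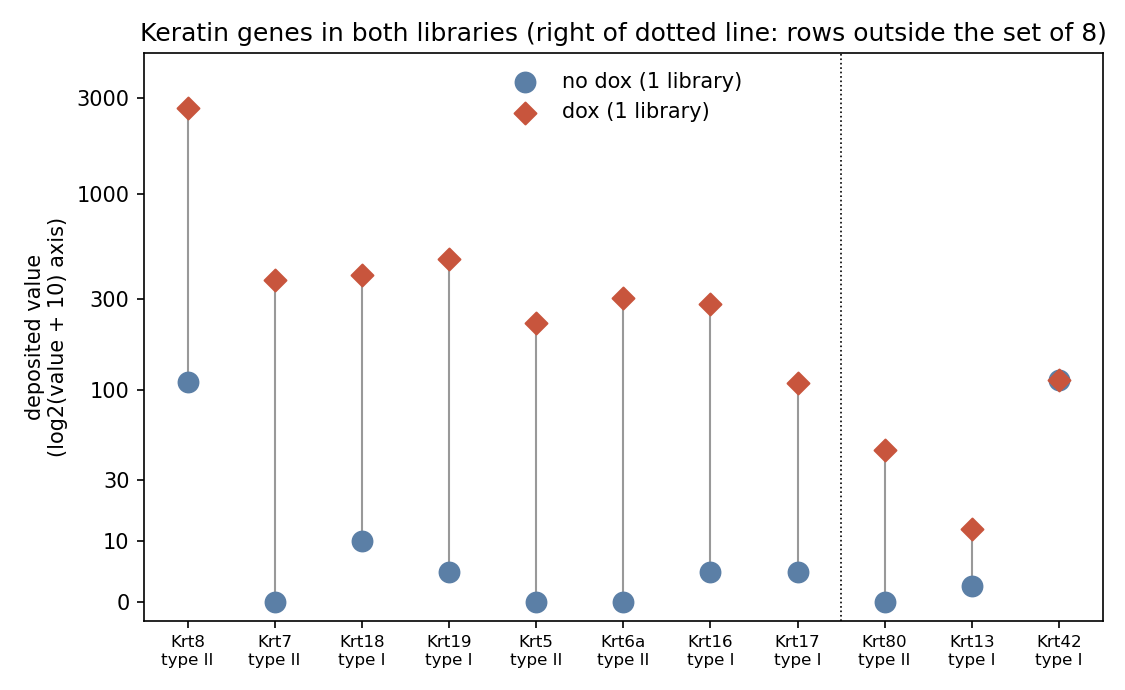
Deposited value of each keratin gene in the library without dox (circles) and with dox (diamonds), on a log2(value + 10) axis, with the keratin type under each name. Krt8 reaches 2672 with dox, the other 7 keratins of the set lie between 109 and 474, and Krt42, at the far right, has 113 and 114.

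Krt8, the commonest type II keratin of simple epithelia, had a value of 111 in the library without dox and of 2672 in that with dox, a ratio of 22.2 and a log2 ratio of 4.47. Ordered by value, it was number 5203 of the rows without dox and number 85 with dox. It was the only 1 of the 8 that lay above the floor without dox. Krt7, its type II companion in ducts, was listed at 0 without dox, and with dox its value of 374 put it at rank 1687. Krt18, the type I partner of Krt8, stood at 10 and 395, a ratio of 20.3 and a log2 ratio of 4.34. Krt19, the shortest type I keratin, stood at 4 and 474, a ratio of 34.6 and a log2 ratio of 5.11. Among the 8547 genes the log2 ratio of Krt19 had rank 15, that of Krt8 rank 32 and that of Krt18 rank 37. The simple keratins thus started from different levels but all ended among the upper 1687 of the 14261 rows.

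The stratified keratins gave lower values with dox than the simple ones. Krt5, of the basal layer, had a value of 0 without dox and of 226 with dox. Krt6a, a type II keratin of activated keratinocytes, was listed at 0 and 303. Krt16, a type I keratin usually found beside Krt6a, stood at 4 and 281, with a log2 ratio of 4.38. Krt17, a type I keratin of appendages and basal cells, stood at 4 and 109, with a log2 ratio of 3.09, the lowest of the 5 members that had a value above 0 without dox. The ratios of these low genes hang on the value added. Krt19 had a log2 ratio of 6.57 when 1 was added and 3.28 when 50 was added, and Krt17 had 4.46 and 1.56, whereas that of Krt8 went only from 4.58 to 4.08.

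Outside the set, 3 further keratin rows were present. Krt80, a type II keratin, was listed at 0 and 46, and Krt13, a type I keratin of internal stratified epithelia, at 2 and 13, so both stayed under the floor of 50. Krt42, a type I keratin, stood at 113 without dox and 114 with dox. It lay just above Krt8 without dox and just above Krt17 with dox. Of the summed value of the 11 keratin rows without dox, 248, Krt42 made up 45.6% and Krt8 44.8%. With dox the sum was 5007, of which Krt42 made up 2.28% and Krt8 53.4%. No value for Krt14, the usual partner of Krt5, was analysed here.

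**Figure D2:**
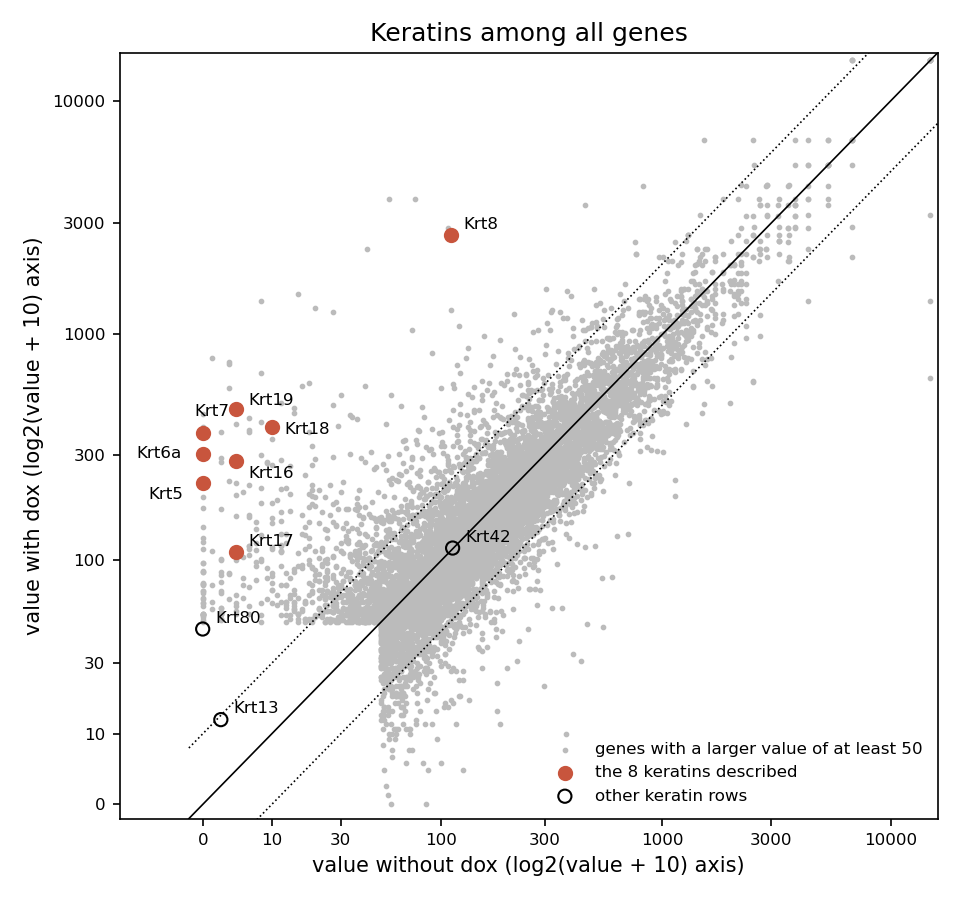
Value without dox against value with dox for the 8547 genes at or above the floor (grey) and the 11 keratin rows, both on log2(value + 10) axes, with equality as a solid line and 2-fold as dotted lines. The 8 keratins of the set lie above the upper dotted line, 7 of them at the left edge with values of at most 10 without dox, while Krt42 lies on the line of equality.

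Because filaments need both types, the values of type II and type I keratins were set side by side. Levels of different genes were compared per kb of the longest annotated transcript and, as a choice made after seeing the data, per kb of coding sequence. The Krt7 transcript of 4094 nt is much longer than the 1371 nt it codes with. The deposited values had almost no relation to transcript length in the library without dox (Spearman rho 0.0093 across 8472 genes, which are not independent replicates) and little with dox (rho 0.14). It is thus uncertain that dividing by length is right, and undivided values are given beside the others. The log2 ratio of dox over no dox did tend to be higher for longer transcripts (Spearman rho 0.27 across the same genes). Results with this trend removed are described further below.

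With dox the order per kb of coding sequence was Krt8 at 1818, Krt19 at 392, Krt18 at 311, Krt7 at 273, Krt16 at 199.7, Krt6a at 183, Krt5 at 129.9 and Krt17 at 83.9. Per kb of transcript the order differed in 1 place: Krt7, at 91.4, fell below Krt16, Krt6a and Krt5, at 179.6, 128 and 103. With no spread between cultures it cannot be said which neighbours in this order differ. Over the 11 rows with dox, type II keratins exceeded type I keratins 2.25-fold per kb of coding sequence, 1.87-fold per kb of transcript and 2.61-fold undivided. This excess lay in Krt8, since without it the ratio of type II to type I was 0.57 per kb of coding sequence, 0.37 per kb of transcript and 0.68 undivided. Without dox the sums were 75.5 for type II, all of it Krt8, and 102 for type I per kb of coding sequence, of which Krt42 gave 83.3.

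The pair Krt8 and Krt18 was unequal in both libraries. Krt8 exceeded Krt18 9.58-fold without dox and 5.84-fold with dox per kb of coding sequence, and 11.1-fold and 6.76-fold undivided. With Krt7 and Krt19 added, the type II to type I ratio of the simple keratins with dox was 2.97 per kb of coding sequence. Among the 4 stratified keratins it was 1.10 per kb of coding sequence, 0.92 per kb of transcript and 1.36 undivided, so both types had like sums there. These ratios come from 1 library each, and values at the top of the scale are set by rank.

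**Figure D3:**
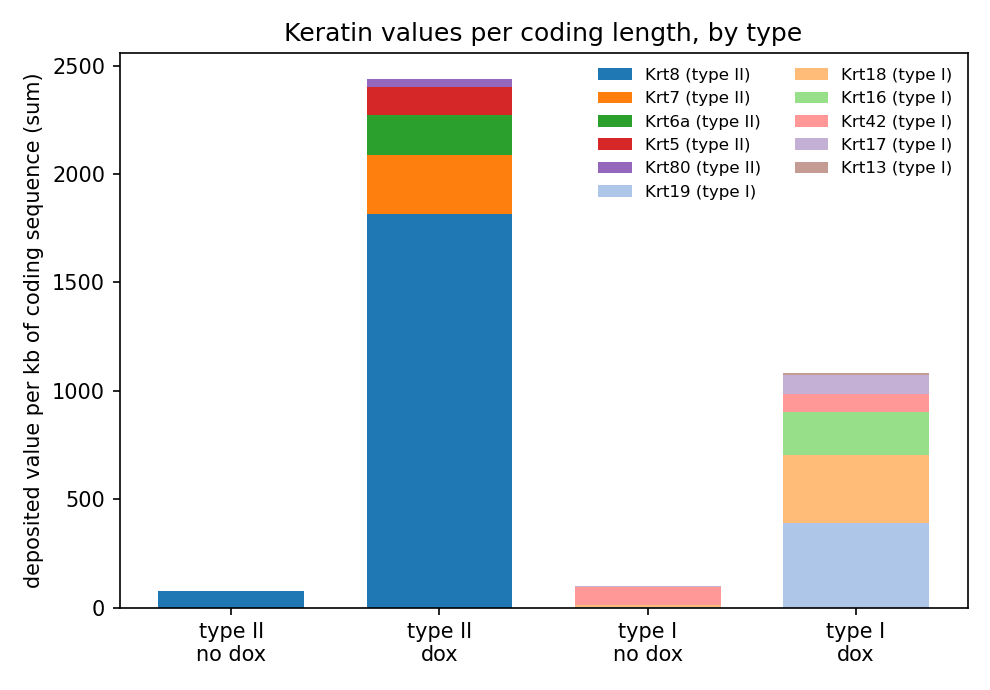
Deposited values per kb of coding sequence, stacked by gene, for type II and type I keratins in each library. With dox Krt8 fills most of the type II bar, 1818 of 2437, whereas the type I bar of 1081 is shared by Krt19, Krt18, Krt16, Krt42 and Krt17.

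The genes lie in both keratin clusters of the mouse genome (GRCm38, GENCODE M21). Krt19 lies on chromosome 11 from 100140810 to 100148665, Krt16 from 100246091 to 100248902 and Krt17 from 100256217 to 100261029, all on the minus strand. On chromosome 15, Krt7 lies from 101411043 to 101430313 on the plus strand, Krt6a from 101689910 to 101694307, Krt5 from 101707070 to 101712898 and Krt8 from 101996698 to 102004482 on the minus strand. Krt18 lies at the end of that cluster, from 102028180 to 102032027 on the plus strand, and is a type I gene beside type II genes. Of 27 protein-coding keratin genes annotated in the cluster on chromosome 11, 5 had a row, and of 26 on chromosome 15, 6 had one.

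The genes around the clusters were mostly within 2-fold between the libraries. Within 500 kb of the cluster on chromosome 11, 17 other protein-coding genes were at or above the floor, of which 0 were higher with dox by 2-fold or more and 3 lower, at a median log2 ratio of −0.24. Around the cluster on chromosome 15 there were 21 such genes, of which 1 was higher and 1 lower, at a median of −0.27. Over all 8547 genes the median was −0.08, and 5.49% were at least 2-fold lower. The flanking genes named here were chosen after their values were seen. The gene higher with dox was Igfbp6, a binding protein of insulin-like growth factors, listed at 0 and 53. Those lower were the replication licensing gene Cdc6, at 261 and 102, the retinoic acid receptor genes Rara, at 116 and 53, and Rarg, at 60 and 10, and Hap1, at 449 and 178. Krt42 lies next to Krt17, and Eif4b, next to Krt18, stood at 2672 and 2220.

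**Figure D4:**
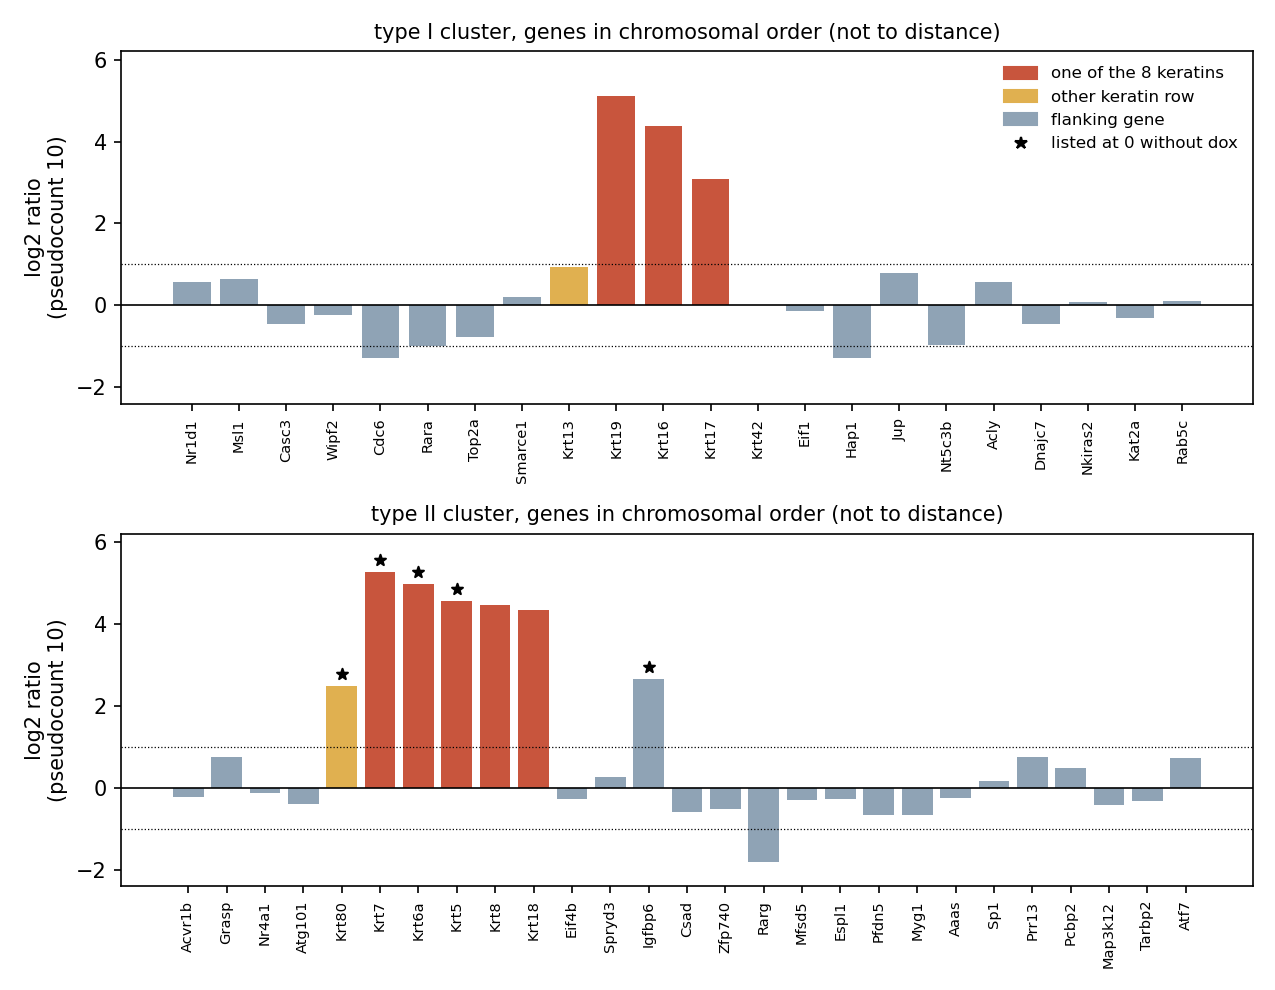
Log2 ratio of dox over no dox (10 added to each value) for the keratin rows and the flanking genes at or above the floor, in chromosomal order, with stars on genes listed at 0 without dox, whose bars depend on the value added. The keratins of the set have bars of 3.09 or more, Krt42 has 0.01, and the flanking genes lie between −1.81 and 0.78 apart from Igfbp6.

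Sequence before the start sites is shown for Krt8 and Krt18, the partners of simple epithelia, for Krt5 of the basal layer, and for Krt13, which was low in both libraries. AP-1, the factor that contains Jun, is known to act on keratin genes, among them the human KRT18 gene, where it binds within an intron. The windows come from RefSeq (GRCm38.p6) and cover 250 bases before the start, cut short where GENCODE places an exon. Of the 8 genes, 4 had a window: Krt7, Krt8, Krt18 and Krt5. Both strands were searched for TGANTCA, a loose form of the AP-1 site in which N is any base, and for the CRE letters TGACGTCA. Neither contains the other, and matches are in capitals.
Krt8, chr15:102004483-102004592, minus strand: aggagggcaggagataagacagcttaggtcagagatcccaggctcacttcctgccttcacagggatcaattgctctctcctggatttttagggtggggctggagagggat
Krt18, chr15:102027966-102028179, plus strand: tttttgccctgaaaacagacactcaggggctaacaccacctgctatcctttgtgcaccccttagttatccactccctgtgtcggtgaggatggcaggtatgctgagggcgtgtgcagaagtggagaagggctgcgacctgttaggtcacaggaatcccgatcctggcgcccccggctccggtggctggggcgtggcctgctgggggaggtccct
Krt5, chr15:101712906-101713155, minus strand: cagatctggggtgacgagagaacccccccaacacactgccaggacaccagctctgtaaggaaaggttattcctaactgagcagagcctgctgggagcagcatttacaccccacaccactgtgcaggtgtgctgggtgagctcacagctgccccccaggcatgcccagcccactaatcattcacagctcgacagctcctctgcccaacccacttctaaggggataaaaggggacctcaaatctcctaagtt
Krt13, chr11:100121567-100121816, minus strand: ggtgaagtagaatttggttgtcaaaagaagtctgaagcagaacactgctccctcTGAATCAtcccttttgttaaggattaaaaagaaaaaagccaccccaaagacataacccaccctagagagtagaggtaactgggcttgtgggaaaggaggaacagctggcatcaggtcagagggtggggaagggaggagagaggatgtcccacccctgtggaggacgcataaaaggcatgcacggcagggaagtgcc

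Neither motif was found in the full 250 bases of any of the 4 windows of the set, which says only that these letters are not there. TGANTCA stood in 6.75% of all 32851 such windows in the mouse genome, in 4.02% of the 8561 windows of genes at or above the floor and in 7.14% of the 840 windows of genes at least 2-fold higher with dox. For TGACGTCA these shares were 1.55%, 2.87% and 2.38%. Of the 6 keratin rows with a window, TGANTCA was found before Krt13 alone. The window shown holds it once, as TGAATCA, from 196 to 190 bases before the start. A second annotated start of Krt13 has it as TGACTCA, at 183 to 177 and at 34 to 28 bases before. Krt13 stood at 2 and 13.

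Keratins resemble each other in sequence, which bears on how reads are divided among them. The coding sequences of the 4 type I genes shared 57.1% to 71.2% of their bases (identical positions over the longer sequence, 6 pairs), and those of the 4 type II genes 59.5% to 76.1% (6 pairs), against 43.6% to 54.0% between the types (16 pairs). The closest pairs were Krt5 with Krt6a and Krt16 with Krt17. Every stretch of 75 bases, the cycle number of the sequencing kit, was looked up in the transcripts of all other genes. For Krt7, Krt18, Krt19 and Krt17 100% of these stretches were in no other gene. For Krt5 this held for 92.2%, for Krt8 for 76.5%, for Krt16 for 71.1% and for Krt6a for 44.0%.

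The partners in these shared stretches differed by gene. Krt8 shares 22.0% of its stretches with Krt8-ps, a processed pseudogene, and Krt16 shares 22.5% with Gm11597, an unprocessed pseudogene, and 6.44% with Krt14. Krt6a shares 36.2% with Krt6b, a neighbouring keratin gene, and Krt6a is among the genes with which Krt5 shares stretches. Of the coding part alone, 50.3% of the Krt6a stretches are in Krt6b as well, and the longest common run is 280 bases. One such stretch, bases 137 to 211 of the Krt6a coding sequence, is shown because no read that falls within it could be given to either gene by its sequence.
Krt6a and Krt6b: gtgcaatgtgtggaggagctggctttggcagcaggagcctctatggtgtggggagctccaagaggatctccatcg
Krt6b, Krt8-ps, Krt14 and Gm11597 were not analysed here. The submitters' notes name RSEM and Bowtie2, but how many shared reads went to each gene is not given in the sources used. The values of Krt6a and Krt16, and in part those of Krt8 and Krt5, are thus uncertain as to the gene. Those of Krt7, Krt18, Krt19 and Krt17 rest on sequence with no identical stretch of 75 bases in another annotated gene.

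Genes that tie keratins to cell junctions were mostly higher with dox. Of 12 linker genes 9 were at or above the floor, of which 6 were higher by 2-fold or more and 0 lower, the median log2 ratio being 2.61 against −0.08 over all genes. Among all 8547 genes 9.23% were higher and 5.49% lower by as much, beside which the counts of this and the other lists stand. The lists were chosen with earlier results of these data known, so these counts are a description only. Dsp, which encodes desmoplakin, the protein that anchors keratins at desmosomes, stood at 108 and 2870. Ppl, the periplakin gene, stood at 4 and 456. The plakophilin genes Pkp3 and Pkp2, of the desmosomal plaque, stood at 6 and 387 and at 39 and 289. Perp, a desmosomal membrane protein gene, stood at 17 and 600, and the plectin gene Plec, a linker between filament systems, at 218 and 1224. Of these, Dsp, Ppl, Pkp3 and Perp had log2 ratios of 4.50 to 5.06, within the range of the keratins themselves. The other linker rows, named outside the rule, did not pass 2-fold. Jup stood at 449 and 778, Dst at 1045 and 1844, Pkp4 at 261 and 288 and, under the floor, Evpl at 7 and 4. A gene under the floor without dox enters the counts and medians of any list only through its value with dox, as Ppl, Pkp3, Pkp2 and Perp do here. The desmosomal cadherins had 1 of 3 measured genes higher and 0 lower, namely Dsc2 at 12 and 212, and a median log2 ratio of 0.80. The other rows, named outside the rule, were Dsg2 at 321 and 566, Dsc3 at 31 and 59 and Dsg1a at 0 in both.

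Hemidesmosomes hold basal keratins to the matrix. Of 5 measured genes 4 were higher and 0 lower, with a median log2 ratio of 2.33. Of the higher genes, Itgb4, Lama3 and Lamb3 were under the floor without dox and enter only through their values with dox. The integrin genes Itga6 and Itgb4, whose products form the hemidesmosomal receptor, stood at 303 and 1569 and at 18 and 143. The laminin chain genes Lama3 and Lamb3, of the epithelial basement membrane, stood at 27 and 294 and at 4 and 60. The cornified envelope list, of proteins of the outermost keratinocytes, had 2 of 4 measured genes higher and 0 lower, with a median of 1.25. Its higher genes were Sfn, which encodes a 14-3-3 protein of epithelia, at 379 and 1533, and Krtdap, a gene of differentiating keratinocytes, at 4 and 199. The other rows are named outside the rule. Flg stood at 51 and 48 and Tgm1 at 126 and 184. Under the floor, Hrnr stood at 36 and 20, Sprr1a at 0 and 10, Tgm3 at 0 and 1 and Sprr2a1 at 0 in both. With no floor the median was 0.51. In the list of genes whose products bind or accompany keratins, 3 of 11 were higher, 0 were lower and the median was 0.49. They were Sfn, Ywhaz, another 14-3-3 gene, at 1295 and 2676, and Fam83h, at 13 and 132.

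**Figure D5:**
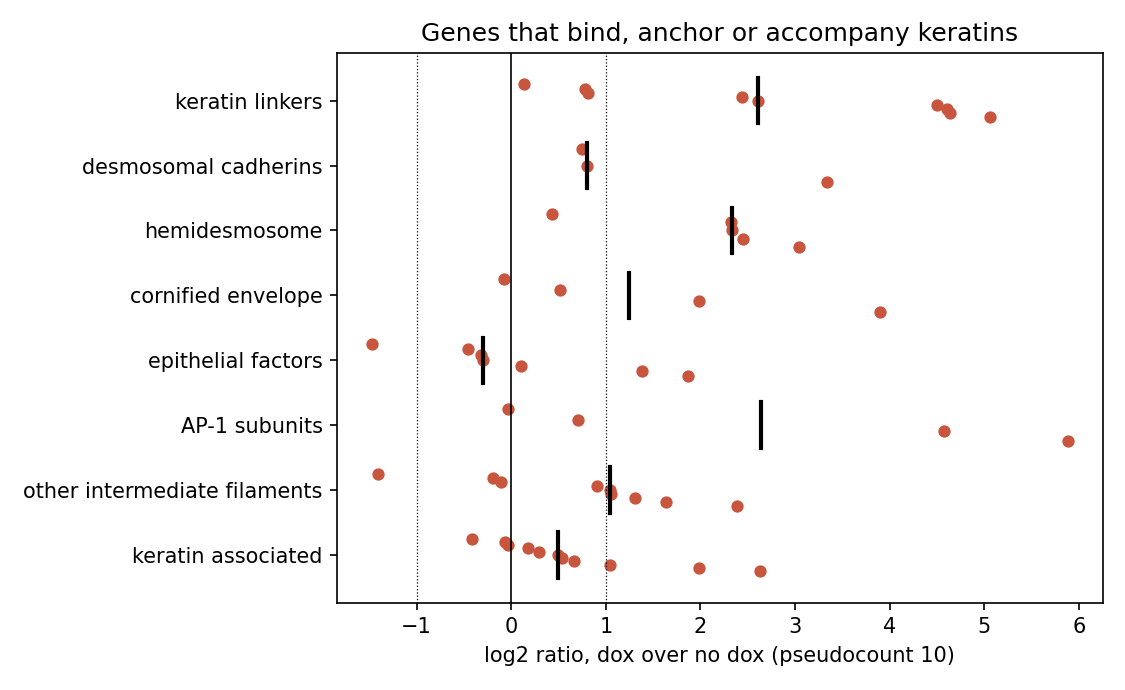
Log2 ratio of dox over no dox for each gene at or above the floor (points) in 8 lists, with the list median as a bar and 2-fold as dotted lines. The linker and hemidesmosome medians lie at 2.61 and 2.33, and the median of the epithelial factors at −0.30.

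Other intermediate filament genes were set beside the keratins, which had been chosen with their own values known. Of 9 measured genes 5 were higher and 1 lower, with a median log2 ratio of 1.05. The lamin gene Lmna stood at 122 and 682, and Vim, the vimentin gene of mesenchymal cells, at 499 and 1571. Nefl, a neurofilament gene, stood at 129 and 279, the nestin gene Nes at 55 and 151 and the internexin gene Ina at 20 and 52, while the neurofilament gene Nefh was lower, at 75 and 22. With 10 added, the log2 ratios of the higher genes, 1.05 to 2.39, all lay below the 3.09 of Krt17. That of Krt17 was 1.56 with 50 added, so this order hangs on the value added. Outside the set, Krt42 had 0.01 and Krt13, under the floor, 0.94.

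The transcription factors known from epithelia did not move as a group. Of 7 measured factors 2 were higher and 1 lower, and their median log2 ratio was −0.30, or 0.20 when factors under the floor were added. Grhl3, a grainyhead factor of the epidermis, stood at 41 and 176, and Ets2, a factor of the trophoblast, at 76 and 215. Klf4, a factor shared by ES cells and epidermis, stood at 889 and 314. Among AP-1 subunits 2 of 4 measured genes were higher and 0 lower, at a median of 2.64. The higher genes were Jun, and Fosl2, which encodes Fra-2, at 8 and 418. Jun is the induced gene, so its part in this count and median was set by the design. The other measured genes, named outside the rule, were Junb at 68 and 66 and Jund at 346 and 570.

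By values in both libraries, the genes nearest to the simple keratins included several of these partners. The measure was the Euclidean distance of log2(value + 10) over the 2 libraries, with keratins left out. Nearest to Krt8 were Dsp, at a distance of 0.11, the imprinted gene Peg10 at 0.74, with values of 74 and 3821, and Jun at 1.03. Nearest to Krt18 were Cgnl1, a junction protein gene, at 10 and 352 and a distance of 0.16, then Fosl2 at 0.17 and Pkp3 at 0.32. Krt19 had Ppl and the calpain gene Capn2, both at 4 and 456 and a distance of 0.055, followed by Micall1 at 4 and 410. Krt7 had Timp2, an inhibitor of metalloproteinases, at 0 and 398, then Slco2a1, a prostaglandin transporter gene, at 2 and 377, and the neuropeptide gene Gal at 0 and 451. A likeness over 2 libraries is weak, and many genes of such low values without dox are near each other.

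Markers of cell types that carry keratins were set beside these values. Of 13 trophectoderm markers 11 had a row, with a summed value of 396 without dox and 3821 with dox, and 5 were at or above the floor. The 4 that were higher were Krt7, Krt8 and Krt18 themselves and Tead4, at 50 and 158. Without these 3 keratins the sum of the other 8 rows was 275 without dox and 380 with dox. The remaining 7 rows are named outside the rule. Among the transcription factors, Tfap2c stood at 159 and 113, Cdx2 at 28 and 34, Eomes at 32 and 18, Ascl2 at 4 and 23, Gata3 at 1 and 6 and Hand1 at 0 and 17, and the placental gene Plac1 stood at 1 and 11. All of these but Tfap2c were under the floor. Of 12 markers of surface ectoderm and keratinocytes 5 had a row, with sums of 445 and 2561, or 445 and 2335 without Krt5. Of these rows 4 were higher: Krt5, Itgb4, Sfn and Perp. Sfn, at 379 and 1533, made up most of each sum. The other row, Dsc3, named outside the rule, stood at 31 and 59. Trp63, the regulator of basal keratinocytes, was not analysed here. Of 12 primitive endoderm markers 5 had a row, and none of these 5 reached the floor, with sums of 24 and 39. Of 10 fibroblast markers 1 reached the floor, Fbln1 at 227 and 133, and the sums were 256 and 207. The sum of the other 9 went from 29 to 74, of which Col3a1 stood at 2 and 39 and Col1a2 at 8 and 19. Dcn and Lum, named outside the rule, were listed at 0 in both libraries. Of 6 blood and macrophage markers 4 had a row, with sums of 225 and 378, and 2 were higher, Csf1r at 1 and 111 and Cd68 at 19 and 96. The other rows, named outside the rule, were Pecam1 at 205 and 152 and Ptprc at 0 and 19. Pecam1 thus made up most of the sum without dox, and the rows beside it were low there. What part any such cells have in the keratin values was not tested.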

How the data were processed

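RNA-seq of 1 library without and 1 library with dox was used, with groups taken from the labelled agent. The submitters' processing notes name bcl2fastq, Bowtie2, RSEM and mm10. Versions, annotation and normalization were not given in the sources used. Each deposited value was used as a score rather than a read count, presumably normalized and then rounded by the authors, because both libraries had the same quartiles and 75.5% of sorted positions held equal values. No other sample column was left unused (0).

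Log2 ratios used a pseudocount of 10, a floor of 50 on the larger value and a 2-fold threshold. With 1 library per group no test was made. The keratins and the gene lists were chosen with earlier results of these data known. Named genes were Jun, the keratin rows of at least 10 in either library, up to 6 genes past 2-fold per list, largest first, or otherwise the 3 largest, and the 3 genes nearest to each of 4 keratins. Genes named outside this rule are said to be so, and 1 gene was left out of the hemidesmosome list and is not reported here. Coordinates and transcripts came from GENCODE M21 (GRCm38), and 99.1% of genes at the floor had a length. A lowess trend (fraction 0.3) served for the length alternative. Only the fold calls were tested on simulated data, drawn as counts with 4-fold changes placed in higher genes. Changes in low genes and the other steps were not tested in this way. Python was 3.11.15, pandas 2.3.3, numpy 2.4.6, statsmodels 0.14.6, scipy 1.17.1, and figures were drawn with matplotlib 3.10.9.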

Additional observations from a re-analysis of the deposited data

How the results depend on the processing

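All 8 keratins of the set were at least 2-fold higher with a value of 1 or 50 added, with no floor, with equal sums, with the median of all genes set to 0, with the length trend removed and at thresholds of 1.5-fold and 4-fold. With a floor of 250, 6 were, because Krt5 and Krt17 then fall out. Across these alternatives the log2 ratio of Krt8 ranged from 4.08 to 4.63, of Krt18 from 2.89 to 5.17, of Krt19 from 3.28 to 6.57, of Krt16 from 2.62 to 5.82 and of Krt17 from 1.56 to 4.46. No keratin ratio or list median past 2-fold changed sign. Another added value, floor or threshold cannot change the sign of a single gene's ratio, so nothing is read from this. With no floor the median log2 ratio went from −0.30 to 0.20 for the epithelial factors and from −0.73, that of Fbln1 alone, to 0.13 for the fibroblast markers. This median also went from 1.25 to 0.51 for the cornified envelope, from 2.64 to 1.69 for AP-1 subunits and from 4.34 to 1.24 for trophectoderm markers.

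With 50 added, 498 genes of all were higher and 171 lower, and other intermediate filaments had 2 higher and 0 lower. With no floor these totals were 1255 and 796, and AP-1 subunits had 4 higher, primitive endoderm 1 and fibroblast markers 1. With a floor of 250 they were 298 and 147. Higher genes then numbered 0 for desmosomal cadherins, 2 for hemidesmosomes, 1 for the cornified envelope, 0 for epithelial factors, 3 for other intermediate filaments, 2 for surface ectoderm and 0 for blood markers, and lower ones 0 for other intermediate filaments. At 1.5-fold the totals were 1425 and 1511, with 3 desmosomal cadherins higher and 1 fibroblast marker lower. At 4-fold they were 266 and 55. Higher genes were then 1 for the cornified envelope, 0 for epithelial factors, 1 for other intermediate filaments, 1 for keratin-associated genes and 1 for blood markers, and lower ones 0 for epithelial factors, 0 for other intermediate filaments and 0 for ES cell markers. Fewer or more genes pass such floors and thresholds by their construction. Equal sums, the median set to 0 and the length trend moved no count by over 1.5 times. No paired analysis was possible because each group has 1 library. Depth is unknown, so how precise the low values are cannot be given.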

Other observations

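The keratins Krt7, Krt6a and Krt5 were among the genes listed at 0 without dox. They were chosen with their values in both libraries known, so nothing is read from their place among such genes. Of 1372 such rows, 629 were listed at 0 with dox too, and their median with dox was 1. Only 11 of them reached 100 with dox. The 5 highest with dox were Gal at 451, Timp2 at 398, Krt7 at 374, Krt6a at 303 and Krt5 at 226, followed by Wnt7b, named outside the rule, at 194. These 3 keratins are the type II genes of the set apart from Krt8, and all of the type I genes of the set had values of 4 or 10 without dox. Values this low in 1 library of unknown depth cannot be told apart, so no difference between the types is read from them. Identical values are common on this scale: with dox 33 rows had the value 109 of Krt17 and 3 rows the value 2672 of Krt8.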
